A study of Rattus norvegicus with 20 samples.

Results

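Ethinyl estradiol, an orally active synthetic estrogen used in contraceptive pills, was compared with vehicle in the mesenteric arteries of ovariectomised rats. The comparison set the 3 arrays of rats given ethinyl estradiol against the 4 arrays of rats given vehicle, chosen by the treatment in the sample titles, so it used 7 of the 20 arrays of the series. All probes of the deposited table were considered, and 24563 of them passed the filters on missing and dim values. Every rat of the series was a female Sprague Dawley rat, ovariectomised at 4 weeks of age before regular cycles began, left for 2 weeks, gavaged daily for 3 weeks and killed at 9 weeks of age, so the controls lacked ovarian hormones too. The ethinyl estradiol rats received 0.15 mg/kg per day. Estradiol benzoate and equilin, the other estrogens of the series, were given at the same 0.15 mg/kg per day to 3 rats each, and are used below only to test where ethinyl estradiol differed from them. Vehicle rats received 20% 2-hydroxypropyl-β-cyclodextrin alone. RNA from the dissected arterial tree of 1 rat was hybridised to each single-colour CodeLink rat genome array. Tamoxifen and raloxifene arrays, the remaining 7, entered only the estimate of the spread.

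Estrogens act mainly through the nuclear receptors ERα (Esr1) and ERβ (Esr2), which bind DNA as dimers or tether to other transcription factors, and through the membrane receptor Gper1. In arteries they are known for effects on endothelial nitric oxide, on smooth muscle tone and growth, and on the turnover of the collagen-rich adventitia. An oral estrogen also reaches the liver first, where it changes hormone-binding proteins and the secretion of Igf1, so an artery can be exposed to indirect as well as direct actions of the compound. The arterial wall is a mixture of smooth muscle, endothelium, adventitial fibroblasts, nerves and immune cells, and in such bulk RNA fewer cells of a type and less RNA per cell cannot be told apart.

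Levels are given as log2 of the deposited intensity after an offset of 0.103, with the median of each array set at 0, and are compared only within a probe. A change is the mean log2 level after ethinyl estradiol minus that after vehicle, with its standard error (SE), and passed, rose and fell are written only of probes with a limma p under 0.05 after Benjamini-Hochberg adjustment over the 24563 probes tested. Precision is limited by the few arrays of each group.

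The 20 arrays fell into 2 sets of 10 that the labels do not name. Deposited array medians were 1.0408 to 1.0612 in one set, which held all 9 estrogen arrays and vehicle array 1, and 1.0007 to 1.015 in the other, which held vehicle arrays 2, 3 and 4. A class of 384 regularly spaced probes without a gene name separated the sets, with array medians of 0.69 to 1.84 in the set of the estrogens and -2.18 to -1.38 in the other. Ethinyl estradiol arrays are therefore also given against vehicle array 1 alone for some genes, and the test was repeated with the array set as a block. That fit reduces to the 3 ethinyl estradiol arrays against vehicle array 1, and assumes that this lone control varied like the arrays of the other groups. Ethinyl estradiol array 3 stood apart by pancreatic genes. The summed intensity of 21 pancreatic markers was 1538 on it, against 14.7 and 12.5 on ethinyl estradiol arrays 1 and 2, and 209.5, 32.6, 18.1 and 67.9 on vehicle arrays 1 to 4. Bright genes with an isolated low reading were also unequal between the groups. Of 3222 named genes with a mean level above 3, ethinyl estradiol arrays 1, 2 and 3 each lay more than 2 below the other 6 arrays for 21, 28 and 95 genes, and each of the 4 vehicle arrays for 0. Their part in the results was not tested as a cause. Of the 154 named probes that passed 1, Apln, had an ethinyl estradiol array more than 2 away from the other 2. This count cannot show probes that such a reading kept from passing, since it also widens the spread.

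Of the 24563 probes, 295 passed (1.2%), of which 133 were higher and 162 lower after ethinyl estradiol. Probes with 1 gene symbol made up 154 of these and stood for 136 genes, 30 higher and 106 lower. The other 141 carried none or several, and 74 of the 133 higher probes belonged to the regularly spaced class. With that class left out of the fit, 119 of the 154 passed, for 110 genes, so some calls of named genes depend on it. In the fit with all tested probes, counted by the brightest probe of each of 10225 genes, 27 genes rose (0.264%) and 99 fell (0.968%). The 3 ethinyl estradiol arrays lay above all 4 vehicle arrays for 4.61% of genes and below all 4 for 10.2%. Against vehicle array 1 alone, all 3 lay above it for 27.2% of genes and below it for 25.6%. The median gene moved by -0.12, or by -0.03 with the array set as a block. For all 154 named probes that passed, the 3 ethinyl estradiol arrays lay outside the range of the 4 vehicle arrays. Vehicle array 1 is 1 of these 4. Their side of vehicle array 1, and their direction with the array set as a block, therefore follow from this and are no separate check. The number of probes that passed depended on single arrays: it was 575 without vehicle array 1, 74 without ethinyl estradiol array 1, 120 without ethinyl estradiol array 3, and 743 when raloxifene array 3, which correlated least with the rest, was left out of the spread. With only the 7 arrays of both groups in the fit, 9 probes passed and 2592 had an unadjusted p under 0.05. The 7 named genes among those 9 were Me1, Cbr1 and Aacs, higher, and Cpz, Nnat, Sfrp4 and Top2a, lower. Whichever of the 7 arrays was left out, 45 probes passed every time, 30 of them with 1 symbol, for 28 genes.

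With the array set as a block, 134 probes passed, 120 higher and 14 lower, and by brightest probe 0.333% of genes were higher and 0.0978% lower. Both fits called 30 probes, of which 23 carried 1 symbol and stood for 20 genes. Higher in both were Me1, Scd, Pc, Thrsp, Mpc1, Cbr1, Cyp2f4, Spink5 and Atosa. Lower in both were Col1a1, Cpz, Smpd3, Cthrc1, Postn, Top2a, Nnat, Nusap1, Penk, Fn1 and Muc20. Any other gene said below to rise or fall against vehicle did not pass with the block, also where this is not repeated. The other 104 probes of the block fit were called there alone. For 103 of them vehicle array 1 was the lowest of the 4 vehicle arrays, which a choice by a fit against that array favours. Against estradiol benzoate 0 of the 104 passed limma's test, near the 0.281% of all probes that passed there.

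**Figure D1:**
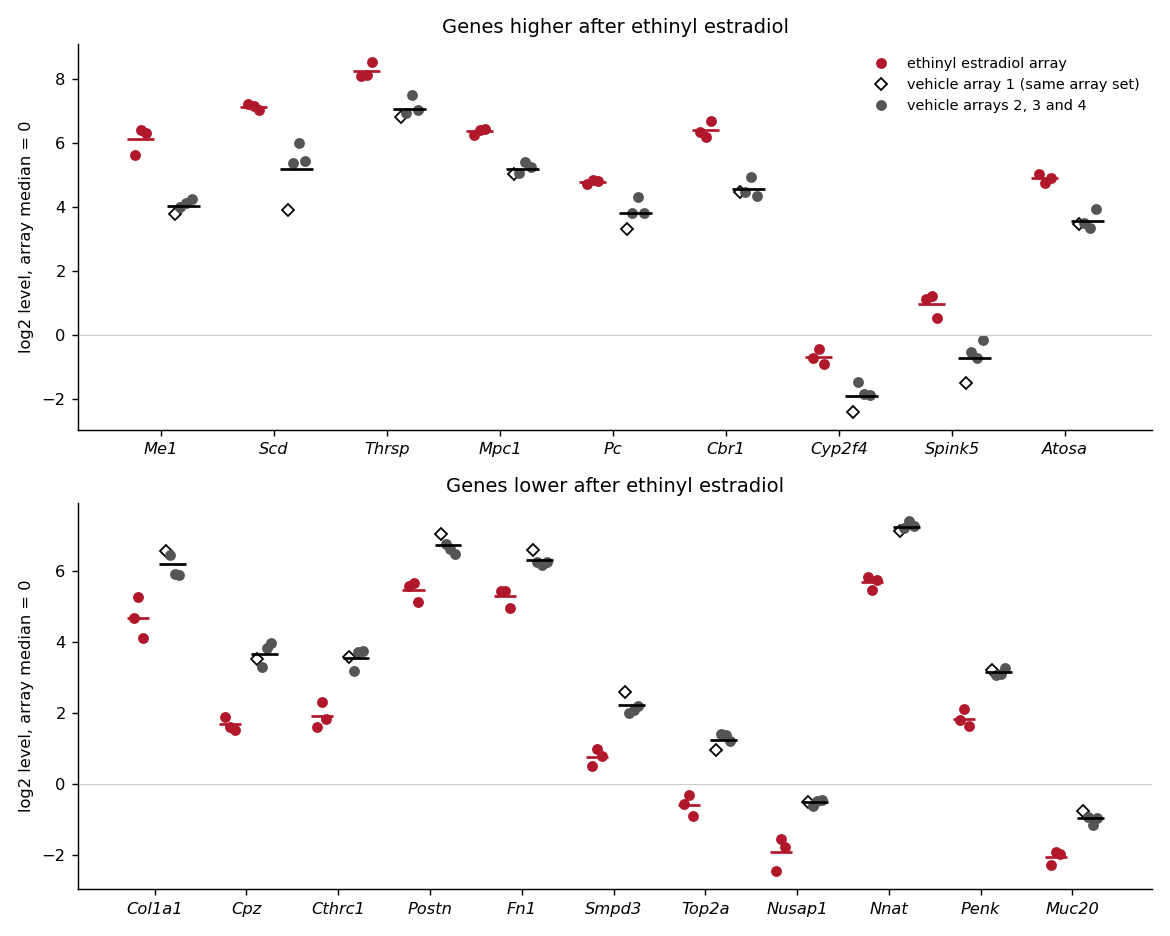
Log2 level on each array (array median = 0) of the 20 named genes that passed both against all 4 vehicle arrays and with the array set as a block, 9 higher above and 11 lower below. Red points are the 3 ethinyl estradiol arrays, the open diamond is vehicle array 1, grey points are vehicle arrays 2, 3 and 4, and lines are group means. The groups do not overlap for any of them, and vehicle array 1 lies lowest of the vehicle arrays for Scd, Pc, Cyp2f4 and Spink5 among others.

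**Figure D2:**
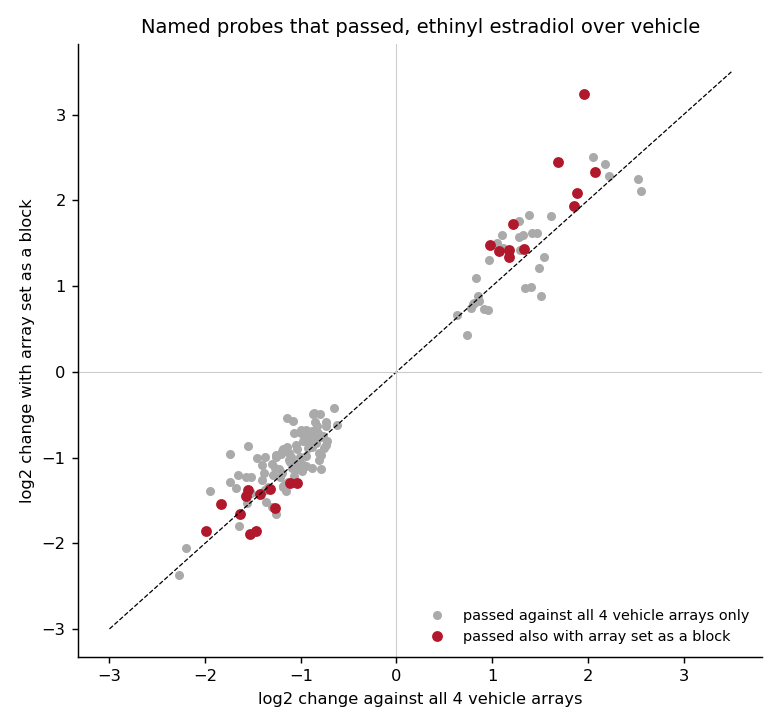
Log2 change of the 154 named probes that passed, against all 4 vehicle arrays (horizontal axis) and with the array set as a block (vertical axis). Red points are the 23 probes that passed in both fits, grey points the others, and the dashed line marks equal changes. No point lies in a quadrant of opposite signs, which follows from the lack of overlap between the groups. Scd lies farthest above the line, at 1.96 and 3.24.

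Enzymes of fatty acid synthesis, and of its supply of carbon and NADPH, gave more rises than any other list. In this pathway citrate leaves the mitochondrion and is cleaved by Acly to acetyl-CoA, Acaca makes malonyl-CoA, Fasn builds palmitate, Elovl6 lengthens it and Scd introduces a double bond, while Me1 supplies NADPH. Of 24 tested members of the list for fatty acid and triglyceride synthesis 7 rose and 0 fell, where 0.264% of all genes rose. With the regularly spaced probes left out, Acaca and the brighter Elovl6 probe, both among the 7, did not pass (limma adjusted p = 0.0503 and 0.0515). The list's median change was 0.64, against -0.12 over all genes. Under the block 3 passed and the median was 0.96.

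Pyruvate enters the mitochondrion through a carrier of which Mpc1 is a subunit. Mpc1 read 6.24, 6.40 and 6.42 after ethinyl estradiol and 5.02, 5.04, 5.40 and 5.25 after vehicle. The 3 treated arrays lay within 0.2 of each other and above every vehicle array. The change was 1.17 (SE 0.16), a 2.26-fold rise, with limma's adjusted p at 0.00150. Against vehicle array 1 alone the 3 treated arrays were higher by 1.22, 1.38 and 1.40. Pyruvate carboxylase (Pc), which makes the oxaloacetate that citrate synthesis needs, was represented by 26 tested probes, of which 25 had a higher mean after ethinyl estradiol and 8 passed. These probes read the same rats, and many have probe numbers at a fixed spacing. They may be repeat spots and are not independent of each other. Their changes ran from -0.19 to 1.42 with a median of 0.98. The Pc probe with the smallest p against the 4 controls, which also passed with the block, read 5.06, 5.11 and 5.16 after ethinyl estradiol and 3.70, 4.17, 4.36 and 3.90 after vehicle, without overlap. Pdk1, a kinase that inhibits pyruvate dehydrogenase, rose by 0.85 (SE 0.16, limma adjusted p = 0.0163), with levels of 3.30, 3.52 and 3.37 after ethinyl estradiol and 2.51, 2.32, 2.90 and 2.47 after vehicle. Its call was lost with the array set as a block (change 0.89, adjusted p = 0.169). The 21 tested genes of glucose uptake and glycolysis held 2 calls, both higher (Mpc1 and Pdk1), at a median of 0.20. Of all genes 0.264% rose.

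Malic enzyme (Me1) had the smallest p of the pathway. Its brighter probe read 5.63, 6.39 and 6.30 after ethinyl estradiol and 3.77, 3.98, 4.12 and 4.24 after vehicle. The groups did not overlap on this probe, and vehicle array 1 was the lowest of the controls. The change was 2.08 (SE 0.24), which is 4.23-fold, with limma's adjusted p at 5.59e-04. It was 2.33 with the array set as a block (adjusted p = 0.00676). The second Me1 probe changed by 1.88 (SE 0.26). Acly rose by 1.49 (limma adjusted p = 0.0475) and read 6.29, 7.50 and 6.71 after ethinyl estradiol and 5.62, 5.13, 5.41 and 5.20 after vehicle. Acaca, the acetyl-CoA carboxylase of the cytosol, read 6.77, 7.21 and 6.28 after ethinyl estradiol and 4.92, 5.39, 5.69 and 5.47 after vehicle. All 3 treated arrays lay above all 4 controls for both genes, and the Acaca change was 1.38 (SE 0.31, limma adjusted p = 0.0423). With the block the adjusted p was 0.662 for Acly and 0.124 for Acaca. Fasn had the same pattern, with 7.22, 7.70 and 7.77 after ethinyl estradiol and 5.23, 5.75, 6.33 and 5.82 after vehicle, but the SE of its change of 1.78 was 0.72 and it did not pass (limma adjusted p = 0.270).

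Scd, the stearoyl-CoA desaturase, read 7.20, 7.16 and 7.01 after ethinyl estradiol and 3.88, 5.36, 5.98 and 5.43 after vehicle. The treated arrays agreed within 0.2, while the vehicle arrays spread over 2.1 with vehicle array 1 lowest. The change was 1.96 (SE 0.33, limma adjusted p = 0.00789) against all 4 controls and 3.24 with the array set as a block (adjusted p = 1.56e-04). Its relative Scd2 did not follow and had a change of -0.50 (adjusted p = 0.202). The brighter Elovl6 probe read 1.17, 2.54 and 3.03 after ethinyl estradiol and 0.43, 0.58, 1.10 and 0.42 after vehicle, a change of 1.61, and a second probe changed by 2.18. Both Elovl6 probes passed against 4 controls and neither passed with the block (adjusted p = 0.284 and 0.0565). Thrsp, a nuclear protein that promotes lipogenic gene expression, was among the brightest of these probes at 8.07, 8.12 and 8.54 after ethinyl estradiol and 6.82, 6.92, 7.50 and 7.01 after vehicle. It rose by 1.18 (SE 0.18, limma adjusted p = 0.00348), and by 1.25, 1.30 and 1.72 on the 3 arrays against vehicle array 1. Aacs, which activates acetoacetate for lipid synthesis, read 2.33, 2.63 and 2.33 after ethinyl estradiol and 1.09, 0.95, 0.75 and 0.77 after vehicle. The groups did not overlap, and the change was 1.54 (SE 0.30, limma adjusted p = 0.0214).

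Other branches of lipid metabolism held no call. In sterol synthesis and uptake 0 of 17 genes passed, at a median of 0.31. Insig1, the sterol sensor that holds back SREBP processing, read 5.16, 5.82 and 5.22 after ethinyl estradiol and 4.91, 4.68, 4.48 and 4.39 after vehicle. All 3 treated arrays were higher, with a change of 0.79 (adjusted p = 0.106), and the gene passed when raloxifene array 3, an outlying array of another group, was left out of the spread (limma adjusted p = 0.0236). In fatty acid oxidation and lipolysis 0 of 18 passed, at a median of 0.16. Pdk4 came closest there, with a change of 1.56 and an SE of 0.54. A pair of transporters outside the lists, chosen after their values were seen, also moved. Slc27a1, a fatty acid transport protein, rose by 0.80 (limma adjusted p = 0.0480), and Abcg1, a cholesterol exporter, fell by 1.37 (adjusted p = 0.00983). The intensities of the 20 adipocyte markers summed to 1616, 1609 and 1563 after ethinyl estradiol and 1938, 1740, 1428 and 1283 after vehicle. The treated sums lay within the vehicle range, and 0 of the 20 passed, at a median of -0.03.

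**Figure D3:**
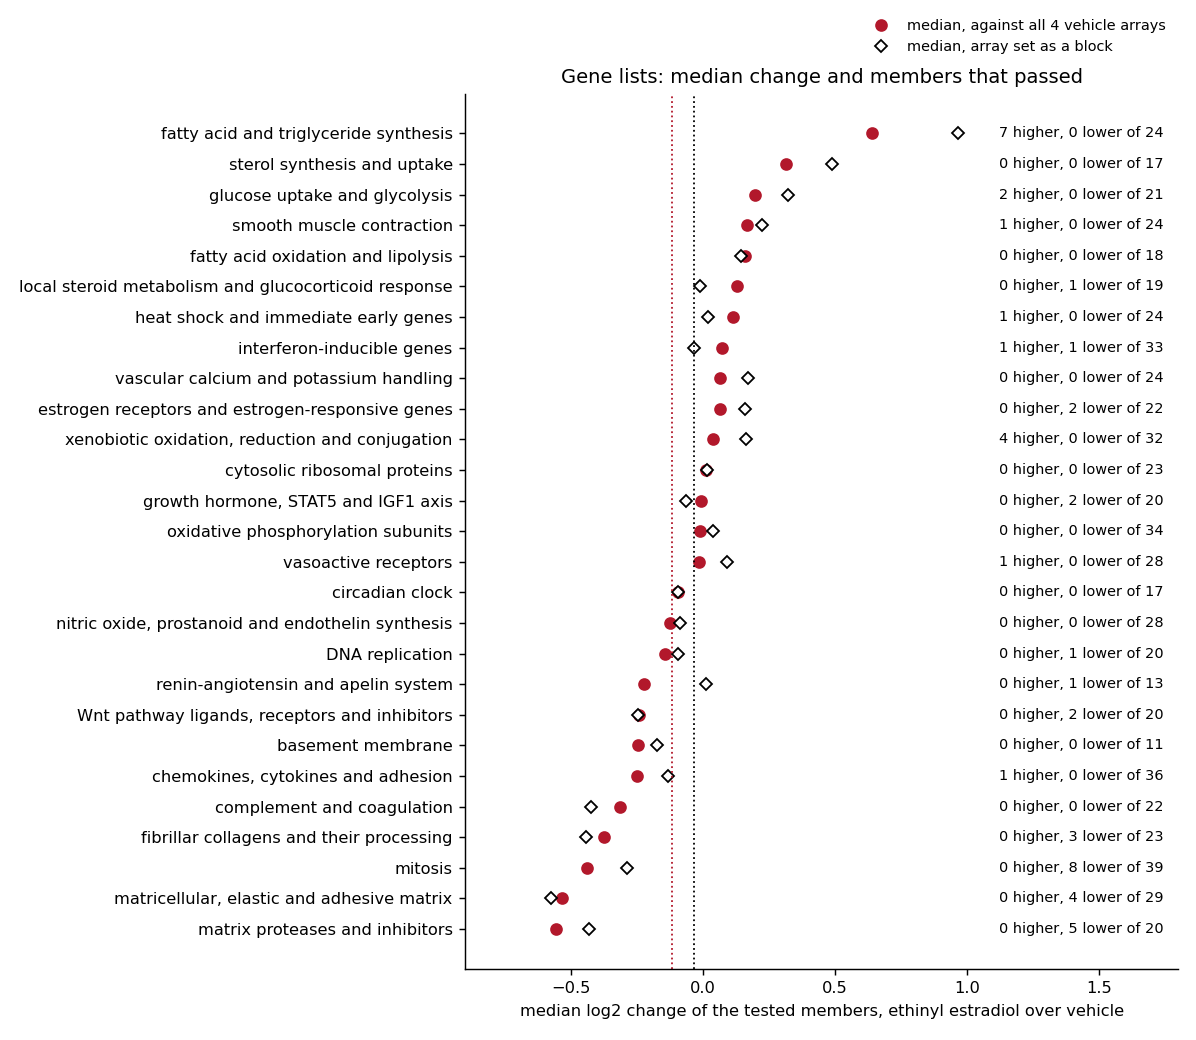
Median log2 change of the tested members of each of the pathway lists, against all 4 vehicle arrays (red points) and with the array set as a block (open diamonds), with the number of members that passed against all 4 at the right. Dotted lines mark the median of all genes in each fit, -0.12 and -0.03. Fatty acid and triglyceride synthesis lies highest, at 0.64, and matrix proteases and inhibitors lowest, at -0.56.

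Enzymes that oxidise, reduce or conjugate foreign compounds gave 4 calls of 32 tested, all higher, at a list median of 0.04. Of all genes 0.264% rose. Carbonyl reductase Cbr1 read 6.34, 6.18 and 6.68 after ethinyl estradiol and 4.46, 4.46, 4.92 and 4.35 after vehicle. The treated arrays stood more than 1 above the highest control. The change was 1.85 (SE 0.24), or 3.61-fold, with limma's adjusted p at 0.00120, and 1.94 with the array set as a block (adjusted p = 0.0259). Cyp2f4, a cytochrome P450 known in rodents for activating small aromatic compounds, was dim but separated, at -0.73, -0.44 and -0.90 after ethinyl estradiol and -2.42, -1.48, -1.85 and -1.90 after vehicle. It rose by 1.22 (limma adjusted p = 0.0236). Cyp2e1, the ethanol-oxidising cytochrome P450, had the highest change of the named probes that passed. It read 3.49, 2.28 and 3.37 after ethinyl estradiol and 0.94, 1.33, -0.45 and 0.12 after vehicle, and changed by 2.56 (SE 0.54, limma adjusted p = 0.0298). Array 2 was the lowest of the treated arrays and the vehicle arrays spread over 1.8. With the block the adjusted p was 0.510. Fmo2, a flavin monooxygenase, showed the same low array 2, with 5.27, 4.22 and 5.35 after ethinyl estradiol and 4.06, 3.16, 3.02 and 3.51 after vehicle. Its 2 probes rose by 1.51 and 1.34, and ethinyl estradiol array 2 exceeded vehicle array 1 by only 0.16 on the brighter one. Mgst2, a glutathione transferase of membranes that is outside the list, rose by 1.47 (limma adjusted p = 0.00926), a gene chosen after its value was seen.

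Further genes rose as the single call of their lists, where 0.264% of all genes rose. Ntsr1, the high-affinity neurotensin receptor, read 1.36, 1.16 and 0.72 after ethinyl estradiol and 0.09, -0.36, -0.19 and -0.85 after vehicle. It was the single call among 28 vasoactive receptors, with a change of 1.41 (SE 0.19, limma adjusted p = 0.00177). Cx3cl1 (fractalkine), a membrane-bound chemokine of endothelium, was the single call among 36 chemokines, cytokines and adhesion molecules. It read 4.44, 4.72 and 4.76 after ethinyl estradiol and 3.82, 3.78, 3.90 and 3.61 after vehicle, a rise of 0.86 (limma adjusted p = 0.0214). Hspb1, a small heat shock protein that binds actin in muscle, rose by 0.96 (limma adjusted p = 0.0271), with 7.55, 7.47 and 7.85 after ethinyl estradiol and 6.32, 6.39, 6.76 and 7.18 after vehicle. Lmod1, which nucleates actin filaments in smooth muscle, rose by 0.81 (limma adjusted p = 0.0249) and was the single call among 24 contraction genes. Its levels were 3.50, 3.51 and 3.68 after ethinyl estradiol and 2.76, 2.87, 2.46 and 2.92 after vehicle. For each of these genes the groups did not overlap, and none of the 4 passed with the array set as a block.

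Atosa and Spink5 passed in both fits. Atosa, the homologue of the Drosophila transcription regulator Atossa, read 5.02, 4.76 and 4.89 after ethinyl estradiol and 3.46, 3.48, 3.33 and 3.94 after vehicle, and changed by 1.34 (SE 0.18, limma adjusted p = 0.00175). A second Atosa probe changed by 0.72 and did not pass. Spink5, a serine protease inhibitor best known from epidermis, was called on all 3 of its probes, with changes of 1.29 to 2.05. The Spink5 probe that passed both fits read 1.11, 1.20 and 0.54 after ethinyl estradiol and -1.50, -0.54, -0.73 and -0.18 after vehicle. Among interferon-inducible genes Ubd, a ubiquitin-like modifier, was higher, and Cxcl9, a T cell chemokine, lower. Ubd read 0.44, 0.86 and 0.79 after ethinyl estradiol and -1.59, -1.80, -0.04 and -2.68 after vehicle, where vehicle array 3 was the highest control, and its change was 2.22 (SE 0.52, limma adjusted p = 0.0470). Cxcl9 fell by 1.29 (limma adjusted p = 0.0400), and the list's median over 33 genes was 0.07. Over all genes 0.264% rose and 0.968% fell.

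The adventitia of an artery is built by fibroblasts from type I and III collagen, which is trimmed by procollagen proteases, crosslinked by lysyl oxidases and organised by matricellular proteins. Of 23 tested fibrillar collagen genes and their processing enzymes 3 fell and 0 rose, at a median of -0.38. Of 29 matricellular, elastic and adhesive genes 4 fell and 0 rose, at a median of -0.53. Of 20 matrix proteases and inhibitors 5 fell and 0 rose, at a median of -0.56. For the basement membrane 0 of 11 passed, at a median of -0.25. Over all genes 0.968% fell and 0.264% rose, at a median of -0.12. The medians with the array set as a block were -0.44, -0.58, -0.43 and -0.18 in the same order. Fibroblast and adventitial markers moved with these lists: 1 of 16 passed, lower (Col14a1), their median was -0.49, and their summed intensity was 729.6, 879.2 and 982.7 after ethinyl estradiol and 1256, 989.2, 1105 and 941.7 after vehicle. The summed ranges overlapped, and their part in the matrix result was not tested.

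Col1a1, the main chain of type I collagen, was measured by 2 probes, and both passed in both fits. The brighter read 4.68, 5.28 and 4.13 after ethinyl estradiol and 6.59, 6.47, 5.93 and 5.91 after vehicle. The other read 2.81, 3.26 and 2.47 after ethinyl estradiol and 4.23, 4.44, 4.41 and 4.53 after vehicle. Neither probe showed overlap, and ethinyl estradiol array 3 was lowest on both. Their changes were -1.53 (SE 0.26, limma adjusted p = 0.00745) and -1.55 (SE 0.19, adjusted p = 9.07e-04). Col1a2, the partner chain, had a change of -0.95 and did not pass (adjusted p = 0.0955). Pcolce, an enhancer of procollagen trimming, fell by 1.04 (limma adjusted p = 0.0114), and Loxl1, a lysyl oxidase relative that crosslinks elastin, fell by 0.96 (adjusted p = 0.0246). A second Pcolce probe had a change of -0.76 (SE 0.44) and did not pass. Neither Pcolce nor Loxl1 passed with the block.

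Among matricellular genes, Postn (periostin) read 5.58, 5.68 and 5.13 after ethinyl estradiol and 7.05, 6.79, 6.63 and 6.49 after vehicle. The 3 treated arrays were -1.47, -1.37 and -1.92 against vehicle array 1, the highest control. The change was -1.27 (SE 0.21, limma adjusted p = 0.00745). Cthrc1, a secreted protein of injured and growing arteries, read 1.61, 2.31 and 1.84 after ethinyl estradiol and 3.58, 3.20, 3.71 and 3.75 after vehicle. It fell by 1.64 (SE 0.21, limma adjusted p = 0.00120), to 0.321 of the vehicle level. Fn1 (fibronectin) fell by 1.04 on its brighter probe (limma adjusted p = 0.0120), while a second, dimmer Fn1 probe had a change of -0.01 with an SE of 0.91. Tnc (tenascin C) fell on both of its probes, by 1.55 and 1.14, and its treated arrays were uneven at 0.11, 1.07 and 1.34 against 1.71, 2.31, 2.75 and 2.79 after vehicle. With the array set as a block the Tnc changes were smaller, at -0.87 and -0.54. On the dimmer Tnc probe ethinyl estradiol array 2 minus vehicle array 1 was only -0.10. Eln (elastin) read 7.42, 7.92 and 7.50 after ethinyl estradiol and 8.53, 8.31, 8.0 and 7.76 after vehicle, and its change of -0.53 did not pass (adjusted p = 0.241).

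Of the proteases, the metallocarboxypeptidases Cpz, which carries a domain like that of the Wnt receptors, and Cpxm1 had the smallest p. Cpz read 1.87, 1.62 and 1.53 after ethinyl estradiol and 3.53, 3.31, 3.85 and 3.98 after vehicle. The lowest control exceeded the highest treated array by more than 1.4. Cpz fell by 1.99 (SE 0.18, limma adjusted p = 6.56e-05), to 0.252 of the vehicle level, and its change with the array set as a block was -1.86 (adjusted p = 0.00635). Cpxm1 read 1.93, 2.22 and 2.0 after ethinyl estradiol and 3.28, 3.27, 3.95 and 4.03 after vehicle and fell by 1.58 (limma adjusted p = 0.00230). Mmp2, a gelatinase, was nearly constant within each group, at 4.84, 5.0 and 4.98 after ethinyl estradiol and 5.82, 5.85, 5.80 and 5.83 after vehicle. It fell by 0.88 on this probe (SE 0.18, limma adjusted p = 0.0249) and by 0.99 on another, while a dim Mmp2 probe had a change of 0.32 and did not pass. Serpinf1, an inhibitor of vessel growth, fell by 0.76 (adjusted p = 0.00926), and A2m, a broad protease inhibitor, by 1.74 (adjusted p = 0.0174).

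Wnt signalling controls growth and cell fate, and its ligands, receptors and inhibitors gave 2 calls of 20 tested genes, both lower. Of all genes 0.968% fell. Sfrp4, a decoy receptor that binds Wnt proteins, had the lowest change of the named probes that passed. It read -1.40, -1.27 and -2.22 after ethinyl estradiol and 0.74, 0.62, 0.66 and 0.57 after vehicle. The 4 controls lay within 0.2 of each other and at least 1.8 above any treated array. Its change was -2.28 (SE 0.34), or 0.206 of the vehicle level, with limma's adjusted p at 0.00286, and with the array set as a block it narrowly missed the threshold (change -2.37, adjusted p = 0.0523). The ligand Wnt5b fell by 1.23 (limma adjusted p = 0.0200), and a second Wnt5b probe had a change of -0.70 without passing.

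Further secreted and mesenchymal genes outside the lists fell too, and the ones named here were chosen after their values were seen. Srpx2, an adhesive glycoprotein, fell by 1.65, Igsf10 by 1.41, and Fndc1 by 1.20 and 0.74 on 2 probes. The adipokine relatives C1qtnf12, C1qtnf3 and C1qtnf5 fell by 1.66, 1.37 and 0.95. The transcription factors Scx, of tendon and ligament, and Prrx2, of limb mesenchyme, fell by 1.26 and 1.10. Aldh1a2, which makes retinoic acid, fell by 0.88, and Alpl, the tissue-nonspecific alkaline phosphatase of mineralising cells, by 1.41. Limma's adjusted p lay between 0.00683 (Prrx2) and 0.00811 (C1qtnf12) at the low end and 0.0259 (Igsf10) and 0.0268 (the brighter Fndc1 probe) at the high end. Smpd3, a neutral sphingomyelinase known for its role in matrix mineralisation, passed both fits. It read 0.50, 0.98 and 0.78 after ethinyl estradiol and 2.61, 2.01, 2.08 and 2.21 after vehicle and fell by 1.47 (SE 0.25, limma adjusted p = 0.00926). The brighter Smpd3 probe passed in neither fit, with a change of -2.72 (SE 0.66, limma adjusted p = 0.0523, or 0.422 with the block), and its treated arrays were uneven at 2.04, 2.76 and -0.47.

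Of 39 tested members of the mitosis list 8 fell and 0 rose, at a median of -0.44, or -0.29 with the array set as a block, where 2 fell. Over all genes 0.968% fell. Of the 39, 16 were lower on each treated array than on any control, against 10.2% of all genes. These 16 include the 8, as every named probe that passed was free of overlap. In DNA replication 1 of 20 fell (Mcm5), at a median of -0.14. Many promoters of mitotic genes carry CCAAT boxes, bound by NF-Y, and a cell cycle homology region, through which the DREAM complex represses them in resting cells. The stretches of 170 bases that end at the annotated start are shown for 4 of the 8 genes, chosen from the 5 in which both motifs lie. They are from RefSeq on build GRCr8, written 5′ to 3′ on the strand of the gene, with every CCAAT box and every cell cycle homology region, on either strand, in capitals.
Top2a, chr10:84473094-84473263, minus strand: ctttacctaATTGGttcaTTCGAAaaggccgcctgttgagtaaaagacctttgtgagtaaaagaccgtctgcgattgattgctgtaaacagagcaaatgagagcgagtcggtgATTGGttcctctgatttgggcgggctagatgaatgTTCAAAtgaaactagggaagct
Mki67, chr1:199952594-199952763, minus strand: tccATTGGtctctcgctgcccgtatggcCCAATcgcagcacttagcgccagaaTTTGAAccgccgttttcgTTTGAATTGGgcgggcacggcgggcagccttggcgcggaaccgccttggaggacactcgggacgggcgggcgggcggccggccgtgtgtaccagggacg
Aspm, chr13:53625414-53625583, plus strand: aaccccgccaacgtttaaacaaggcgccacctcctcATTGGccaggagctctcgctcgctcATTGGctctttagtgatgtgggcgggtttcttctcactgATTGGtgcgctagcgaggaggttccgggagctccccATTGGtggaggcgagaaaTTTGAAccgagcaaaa
Kif22, chr1:191080879-191081048, minus strand: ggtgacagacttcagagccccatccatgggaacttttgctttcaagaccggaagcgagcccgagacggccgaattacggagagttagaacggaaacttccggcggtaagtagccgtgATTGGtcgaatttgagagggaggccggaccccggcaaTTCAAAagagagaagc

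The CCAAT box was searched as CCAAT and the cell cycle homology region as TTTGAA or TTCGAA, each on both strands, over 250 bases before and 50 after the start. In Mki67 a box and a region share letters. Of the promoters of the 39 mitosis genes 33 were in the RefSeq table. A CCAAT box was present in 26 of these 33 (78.8%), against 37.4% of 8483 promoters of tested genes and 37.7% of all 27457 promoters. The cell cycle homology region was present in 23 of 33 (69.7%), against 13.1% of tested genes and 19.5% of all promoters. Among promoters of all genes that fell, 28 of 74 held a CCAAT box (37.8%) and 9 of 74 the region (12.2%). A match of letters is not a site of binding.

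Top2a, the topoisomerase that untangles DNA before division, read -0.58, -0.31 and -0.90 after ethinyl estradiol and 0.94, 1.40, 1.39 and 1.21 after vehicle. Every treated array lay more than 1.2 below the lowest control. It fell by 1.83 (SE 0.20, limma adjusted p = 5.29e-04), to 0.281 of the vehicle level, and the 3 arrays minus vehicle array 1 gave -1.53, -1.25 and -1.84. Nusap1, a spindle protein, read -2.48, -1.56 and -1.78 after ethinyl estradiol and -0.52, -0.63, -0.47 and -0.45 after vehicle. It passed both fits, with changes of -1.42 and -1.42. Mki67, the proliferation marker, read -0.32, -0.19 and -0.53 after ethinyl estradiol and 0.65, 1.09, 1.28 and 1.09 after vehicle. It fell by 1.37 (SE 0.30, limma adjusted p = 0.0348), and its call was lost with the block (change -0.99, adjusted p = 0.664). The kinase Pbk, the spindle protein Aspm, cyclin Ccna2 and the kinesins Kif20a and Kif22, which complete the 8, fell by 1.74, 1.0, 1.01, 1.07 and 1.12, with limma's adjusted p between 0.00926 and 0.0331, and none of these 5 passed with the block. Cdk1, the kinase that drives entry into mitosis, had a change of -1.40 and did not pass (adjusted p = 0.0559). Most of these probes were dim, near or under the array median, where the offset makes a change smaller than the change in intensity.

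Hormone axes gave isolated calls. Hsd11b2, which inactivates glucocorticoids and so protects the mineralocorticoid receptor, read -0.44, 0.30 and -0.42 after ethinyl estradiol and 1.16, 1.52, 1.77 and 1.50 after vehicle. The groups did not overlap, and the change was -1.68 (SE 0.23, limma adjusted p = 0.00177), a fall to 0.313 of the vehicle level. With the block it was -1.35 (adjusted p = 0.122). It was the single call among 19 genes of local steroid metabolism and glucocorticoid response, at a list median of 0.13. Of all genes 0.968% fell. The glucocorticoid-induced Fkbp5 did not pass on its brighter probe (change 0.58, adjusted p = 0.386) or on a dimmer one (change 0.99, adjusted p = 0.232).

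In the growth hormone, STAT5 and IGF1 axis 2 of 20 genes fell, Cish and Igfbp5, at a list median of -0.01. Of all genes 0.968% fell. Cish is a feedback inhibitor that growth hormone and other cytokines induce through STAT5, and its promoter is shown because it is known for STAT sites. The 170 bases before its start in RefSeq on build GRCr8 are given 5′ to 3′, with the 2 matches to TTCNNNGAA in capitals. This palindromic motif was found in 8.68% of all promoters and in 6.78% of promoters of tested genes, and 2 more matches lie farther upstream in the 250 bases searched.
Cish, chr8:116850799-116850968, plus strand: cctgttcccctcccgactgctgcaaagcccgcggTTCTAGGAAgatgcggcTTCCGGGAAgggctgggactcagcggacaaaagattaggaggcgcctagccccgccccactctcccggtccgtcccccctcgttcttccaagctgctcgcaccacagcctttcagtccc
The Cish probe that passed read 1.15, 0.71 and 0.68 after ethinyl estradiol and 2.24, 2.43, 3.45 and 3.07 after vehicle. Treated arrays lay below every control, and vehicle array 1 was the lowest control. Its change was -1.95 (SE 0.42, limma adjusted p = 0.0328), and with the array set as a block -1.39 (adjusted p = 0.664). Of 3 Cish probes this was the single one to pass, and the other 2, which were below the array median, had changes of 0.38 and -0.07. On the first of these the treated arrays lay above all controls, so the probes of this gene disagree.

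Igf1, the growth factor downstream of growth hormone, read 5.38, 6.57 and 6.13 after ethinyl estradiol and 7.03, 7.40, 7.42 and 7.33 after vehicle. Each treated array lay below each control, but the change of -1.27 had an SE of 0.53 and did not pass (adjusted p = 0.298). It passed when raloxifene array 3 was left out of the spread (SE 0.30, limma adjusted p = 0.0337). Igfbp5, a binding protein for IGFs, fell by 0.92 (limma adjusted p = 0.0301), and a dim second probe had a change of -0.10. The growth hormone receptor Ghr read 3.22, 3.23 and 3.22 after ethinyl estradiol and 3.72, 3.26, 3.56 and 2.96 after vehicle, with overlapping groups.

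The estrogen receptors themselves did not pass. Esr1 read -0.23, -0.36 and -0.75 after ethinyl estradiol and -0.22, -0.39, -0.87 and -0.79 after vehicle. Esr2 read 0.41, 0.45 and 0.52 after ethinyl estradiol and 0.33, 0.35, 0.67 and 0.79 after vehicle. Groups overlapped on these probes, with changes of 0.12 (SE 0.21) and -0.08 (SE 0.14). A second, dimmer Esr2 probe read -0.19, 0.18 and -0.02 after ethinyl estradiol and -0.67, -0.46, -0.81 and -0.33 after vehicle. Its treated arrays lay above all controls, but its change of 0.56 (SE 0.21) did not pass, and the 2 probes disagree. Gper1 changed by 0.09 (SE 0.27) and Pgr, the progesterone receptor and a classical estrogen target in uterus, by 0.15 (SE 0.16), and neither passed. Among 22 tested estrogen receptors and estrogen-responsive genes 2 passed, both lower (Igfbp5, and Lcn2, which binds iron carriers), at a median of 0.06. Of all genes 0.968% fell. The full palindromic estrogen response element, GGTCANNNTGACC, was found in 7 of the 27457 promoters, in 0 of the 8483 of tested genes and so in 0 of the 24 promoters of higher and the 74 of lower genes that were in the table. That says only that these letters are not in these windows.

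Apln, the apelin peptide that dilates arteries, read 0.11, 0.52 and -2.38 after ethinyl estradiol and 1.48, 1.78, 1.52 and 1.69 after vehicle. All 3 treated arrays lay below the controls, and array 3 lay more than 2 below the other treated arrays. Apln was the single call among 13 genes of the renin-angiotensin and apelin system, where 0.968% of all genes fell. The change was -2.20 (SE 0.43, limma adjusted p = 0.0219). Without array 3 it was -1.30 (adjusted p = 0.00454). The apelin receptor Aplnr had a change of -1.54 and an adjusted p of 0.0585. Penk, the precursor of enkephalin peptides, read 1.80, 2.12 and 1.62 after ethinyl estradiol and 3.21, 3.09, 3.10 and 3.27 after vehicle. It passed both fits, with changes of -1.32 (SE 0.18, limma adjusted p = 0.00183) and -1.36. Nnat (neuronatin), an imprinted membrane protein of brain and fat, was bright and even within groups, at 5.85, 5.48 and 5.75 after ethinyl estradiol and 7.14, 7.22, 7.43 and 7.28 after vehicle. It fell by 1.58 (SE 0.19), to 0.335 of the vehicle level, with limma's adjusted p at 9.07e-04. Muc20, a mucin, was dim and also lower in both fits (changes -1.11 and -1.30).

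Lists for the main vasodilator and contractile machinery held few calls or none. For nitric oxide, prostanoid and endothelin synthesis 0 of 28 passed limma's test, at a median of -0.13. Nos3, the endothelial nitric oxide synthase, read 4.90, 4.85 and 4.86 after ethinyl estradiol and 5.34, 5.03, 5.17 and 4.90 after vehicle. Its treated arrays lay below all controls by a narrow margin, with a change of -0.24 (SE 0.26). The cyclooxygenases Ptgs1 and Ptgs2 had changes of -0.90 (adjusted p = 0.0802) and -1.26 (adjusted p = 0.139). A dimmer Ptgs1 probe had a change of 0.31 without passing, with all treated arrays above all controls, so the probes of Ptgs1 disagree. Edn1 had a change of 0.70 and overlapping groups. For calcium and potassium handling 0 of 24 passed. Agtr1a, the angiotensin receptor of smooth muscle, and Ace had changes of -0.53 and -0.22 and did not pass. Smooth muscle markers, which define the media of an artery, were bright. Myh11, the smooth muscle myosin, read 8.23, 8.35 and 8.81 after ethinyl estradiol and 8.55, 8.34, 8.18 and 7.64 after vehicle. The contraction list had a median of 0.17 and 1 of 24 higher, against -0.12 and 0.264% over all genes. Its summed intensity was 2797, 2925 and 2982 after ethinyl estradiol and 2744, 2454, 2515 and 2422 after vehicle, without overlap. All 3 treated arrays lay above vehicle array 1 for 10 of the 24 and below it for 0, against 27.2% and 25.6% of all genes. The Acta2 probe tested was dim (-0.45, 0.36 and -0.47 after ethinyl estradiol and -0.84, 0.14, -1.35 and -0.40 after vehicle) and says little of this abundant transcript.

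Of 15 tested mast cell genes 3 fell and 0 rose, at a median of -0.56, where 0.968% of all genes fell. The summed intensity of the 17 markers on the array was 48.8, 56.2 and 57.1 after ethinyl estradiol and 77.7, 68.3, 62.6 and 62.1 after vehicle, without overlap. Hdc, which makes histamine, read 0.43, 0.34 and 0.35 after ethinyl estradiol and 1.53, 1.04, 1.50 and 1.38 after vehicle. The treated arrays lay within 0.1 of each other. It fell by 0.99 (SE 0.19, limma adjusted p = 0.0177), and the mast cell proteases Mcpt10 and Cpa3 by 0.94 and 0.73 (adjusted p = 0.0273 and 0.0322). Mcpt1l1, a related protease outside the list and named after its value was seen, fell by 1.14. Of the mast cell markers, Mcpt8 and Mcpt9 were too dim to test. None of the 3 genes passed with the array set as a block, nor in the fit without ethinyl estradiol array 3, where limma's adjusted p was 0.0531, 0.0545 and 0.0770 for Hdc, Mcpt10 and Cpa3.

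Of 25 macrophage and dendritic cell genes 1 fell, at a median of -0.49, where 0.968% of all genes fell. It was the dendritic cell receptor Clec9a (change -1.02, limma adjusted p = 0.0254). Summed intensities of the list were 632.1, 648.5 and 676.5 after ethinyl estradiol and 1019, 803.1, 1050 and 672.8 after vehicle, so that the highest treated array overlapped the lowest control. T and B lymphocyte markers (13 tested), endothelial markers (19) and markers of lymphatic and venous endothelium (9) held 0 calls. Their medians were -0.34, -0.15 and -0.07. Pecam1 read 5.47, 5.75 and 5.89 after ethinyl estradiol and 5.98, 5.58, 5.53 and 5.77 after vehicle, with overlapping groups. Nerve, erythroid, enteric and mesothelial lists held 0 calls of 12, 6, 5 and 7. Of 3 tested intestinal genes 1 fell (Apoa1, by 0.91), and 8 intestinal markers were too dim to test. Of 10 tested skeletal and cardiac muscle genes 1 fell (Myh2, by 1.26). The pancreatic list, for which array 3 stood apart, held 0 calls of 19, and its median was 0.38 with array 3 and -1.80 without it.

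**Figure D4:**
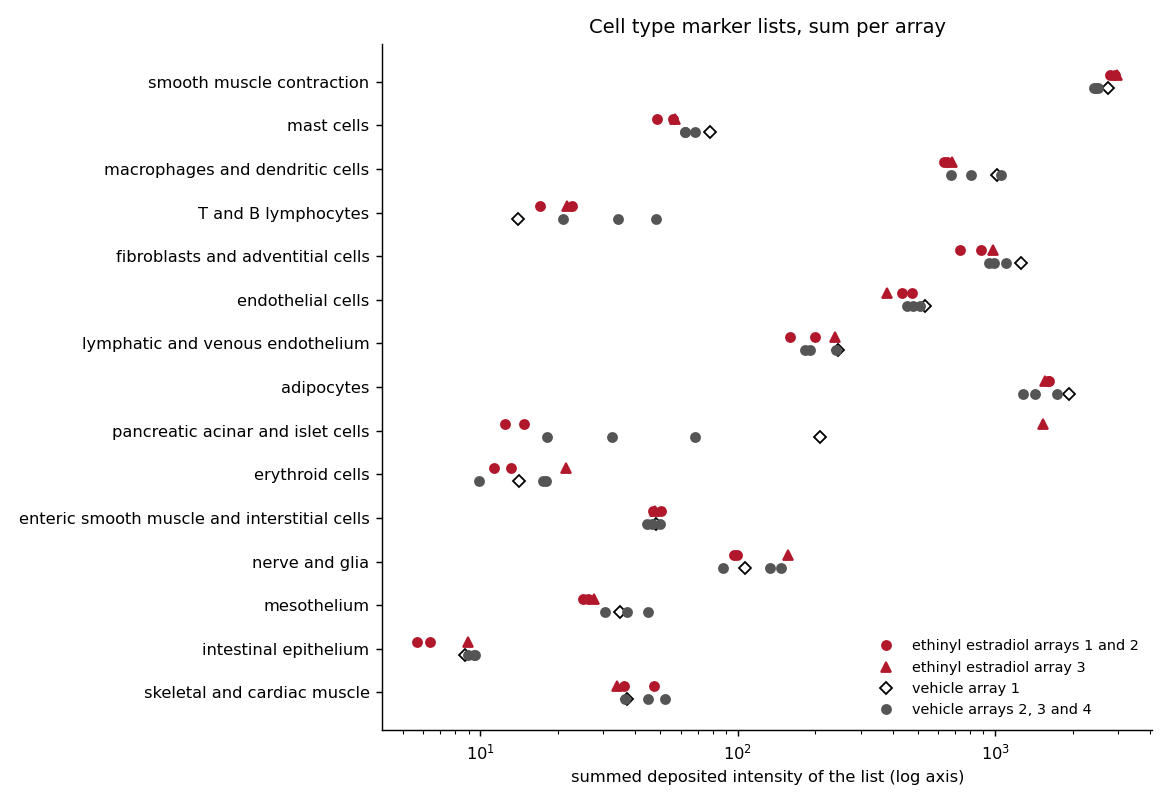
Summed deposited intensity (log axis) of the cell type marker lists on each array, with the 3 ethinyl estradiol arrays in red above the 4 vehicle arrays for each list. The triangle is ethinyl estradiol array 3 and the open diamond vehicle array 1. Sums do not overlap between the groups for mast cells and mesothelium, both lower after ethinyl estradiol, and for smooth muscle contraction, higher. The pancreatic sum of array 3, 1538, lies far from all others.

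Lists of housekeeping genes, of the circadian clock, and of complement and coagulation held no call. Oxidative phosphorylation subunits (34 tested) and cytosolic ribosomal proteins (23) held 0 calls, at medians of -0.01 and 0.01. For the circadian clock 0 of 17 passed, at a median of -0.10, and Per2 and Dbp had changes of -0.10 and 0.01. For complement and coagulation 0 of 22 passed, at a median of -0.31. All 3 treated arrays lay below vehicle array 1 for 15 of the 22, against 25.6% of all genes. They lay below all 4 controls for 2 of the 22, against 10.2%.

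Estradiol benzoate and equilin, given at the same dose, show where ethinyl estradiol differed from other estrogens. Ethinyl estradiol is estradiol with an ethynyl group that slows its breakdown, estradiol benzoate is an ester of estradiol, and equilin is an estrogen of pregnant mares with an additional double bond in a ring. All 9 of these arrays lie in the same array set, so the array set does not separate them. Both comparisons use the same 3 ethinyl estradiol arrays, and so share them with the comparison with vehicle. P-values were adjusted over all probes in each of the 2 pairs. Against estradiol benzoate 69 probes passed (0.281%), 41 higher and 28 lower. Against equilin 43 passed (0.175%), 36 higher and 7 lower.

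Me1 read 5.63, 6.39 and 6.30 after ethinyl estradiol and 4.07, 4.34 and 4.0 after estradiol benzoate. Every treated array was above every estradiol benzoate array, and the difference was 1.97 (95% confidence interval 1.44 to 2.51, limma adjusted p = 0.00127). Equilin arrays read 5.55, 6.0 and 5.18, and the difference of ethinyl estradiol from equilin was 0.53 (95% confidence interval -0.0020 to 1.06, adjusted p = 0.523). For Cbr1 the differences were 1.97 (95% confidence interval 1.43 to 2.50) from estradiol benzoate (limma adjusted p = 0.00127) and 0.29 (95% confidence interval -0.25 to 0.83) from equilin (adjusted p = 0.752). For Mpc1 they were 1.17 (95% confidence interval 0.82 to 1.52) and 0.22 (95% confidence interval -0.13 to 0.57), with adjusted p at 0.00357 and 0.714. Thrsp and Aacs were also higher than after estradiol benzoate, by 1.08 and 1.57. Scd differed from estradiol benzoate by 1.15 (95% confidence interval 0.41 to 1.89) and did not pass (adjusted p = 0.242). Over the 24 genes of fatty acid synthesis the median difference was 0.73 from estradiol benzoate and 0.24 from equilin, with 3 and 0 genes passing. Over all 10225 genes the medians were 0.02 and 0.10, and 31 and 20 genes passed.

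Lower genes differed from estradiol benzoate too. Hsd11b2 read -0.44, 0.30 and -0.42 after ethinyl estradiol and 1.29, 2.07 and 1.46 after estradiol benzoate, a difference of -1.79 (95% confidence interval -2.32 to -1.27, limma adjusted p = 0.00263). From equilin, which read 0.85, 0.26 and 0.34, it differed by -0.67 (95% confidence interval -1.19 to -0.15) and did not pass (adjusted p = 0.390). Cpz differed from estradiol benzoate by -1.37 (95% confidence interval -1.78 to -0.96) and Nnat by -1.36 (95% confidence interval -1.79 to -0.93), with limma's adjusted p at 0.00357 and 0.00418. Sfrp4 differed by -1.94 (95% confidence interval -2.70 to -1.19, limma adjusted p = 0.0221). Both Col1a1 probes and Cthrc1 also passed against estradiol benzoate. From equilin the difference was -0.45 (95% confidence interval -0.86 to -0.04) for Cpz, -0.52 (95% confidence interval -1.28 to 0.23) for Sfrp4 and -0.66 (95% confidence interval -1.08 to -0.23) for Nnat. None of these 3 passed against equilin, though the intervals for Cpz and Nnat lie below 0, and a p above the threshold does not show that the compounds act alike. The difference of Top2a from estradiol benzoate was -1.04 (95% confidence interval -1.50 to -0.59, limma adjusted p = 0.0496), close to the threshold.

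Hspb1, Fmo2, Lmod1 and, on a single probe, Atosa differed from both estrogens. Against vehicle their changes were 0.96, 1.51, 0.81 and 1.34, so these differences do not measure the rise over vehicle. Vehicle arrays read 6.32, 6.39, 6.76 and 7.18 for Hspb1 and 4.06, 3.16, 3.02 and 3.51 for the brighter Fmo2 probe. Hspb1 read 7.55, 7.47 and 7.85 after ethinyl estradiol, 5.63, 6.32 and 5.87 after estradiol benzoate and 5.97, 5.67 and 5.68 after equilin. Ethinyl estradiol arrays were above all 6 others, with differences of 1.68 (95% confidence interval 1.24 to 2.13, limma adjusted p = 0.00127) and 1.85 (95% confidence interval 1.40 to 2.30, adjusted p = 0.00120). The brighter Fmo2 probe read 5.27, 4.22 and 5.35 after ethinyl estradiol, 2.27, 2.86 and 1.90 after estradiol benzoate and 2.76, 2.60 and 3.11 after equilin. It differed by 2.60 (95% confidence interval 1.93 to 3.26) and 2.12 (95% confidence interval 1.46 to 2.79, limma adjusted p = 0.00127 and 0.0169). Lmod1 differed by 1.21 (95% confidence interval 0.84 to 1.57) and 1.12 (95% confidence interval 0.75 to 1.49, limma adjusted p = 0.00364 and 0.0176), and Atosa by 1.80 (95% confidence interval 1.39 to 2.21) and 1.07 (95% confidence interval 0.66 to 1.48, adjusted p = 7.70e-04 and 0.0329). A second Atosa probe, about as bright, differed by 1.14 and 0.66 and passed against neither (limma adjusted p = 0.248 and 0.565).

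Several smooth muscle genes passed here that had not passed against vehicle, and the difference between those comparisons was not tested. Myocd, the coactivator that drives smooth muscle genes, was dim, at -0.24, -0.29 and -0.13 after ethinyl estradiol, -2.36, -1.76 and -1.05 after estradiol benzoate and -1.75, -1.54 and -1.24 after equilin. Its difference from estradiol benzoate was 1.50 (95% confidence interval 0.86 to 2.14, limma adjusted p = 0.0432). Pln (phospholamban), a regulator of calcium reuptake, exceeded equilin by 1.32 (95% confidence interval 0.84 to 1.79, limma adjusted p = 0.0242), and Cacna1h, a calcium channel, by 1.19 (95% confidence interval 0.77 to 1.60, adjusted p = 0.0204). Other, dimmer Pln probes differed from equilin by 1.17 and 2.20 without passing. Over the 24 contraction genes the median difference was 0.50 from estradiol benzoate and 0.68 from equilin, with 2 genes passing in each. Over all 10225 genes the medians were 0.02 and 0.10, and 31 and 20 genes passed. Fkbp5, on its dimmer probe, exceeded estradiol benzoate by 2.0 (95% confidence interval 1.17 to 2.83, limma adjusted p = 0.0390). On its brighter probe the difference was 1.83 (adjusted p = 0.0145). Map1b, a microtubule protein, exceeded equilin by 1.82 (95% confidence interval 1.12 to 2.52) on one probe, and by 1.04 on a brighter one that did not pass. The passing differences below equilin were -1.37 (95% confidence interval -1.93 to -0.80) for Pfkl, a phosphofructokinase, -1.33 (95% confidence interval -1.88 to -0.78) for Oxtr, the oxytocin receptor, -1.43 (95% confidence interval -2.0 to -0.86) for Arsi, a sulfatase, and -0.92 (95% confidence interval -1.30 to -0.54) for Muc20. A dimmer Pfkl probe differed from equilin by 0.10 and did not pass. For Pola2, a subunit of DNA polymerase alpha, the difference from estradiol benzoate was -1.34 (95% confidence interval -1.90 to -0.78). A dimmer Pola2 probe differed by -0.86 and did not pass.

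**Figure D5:**
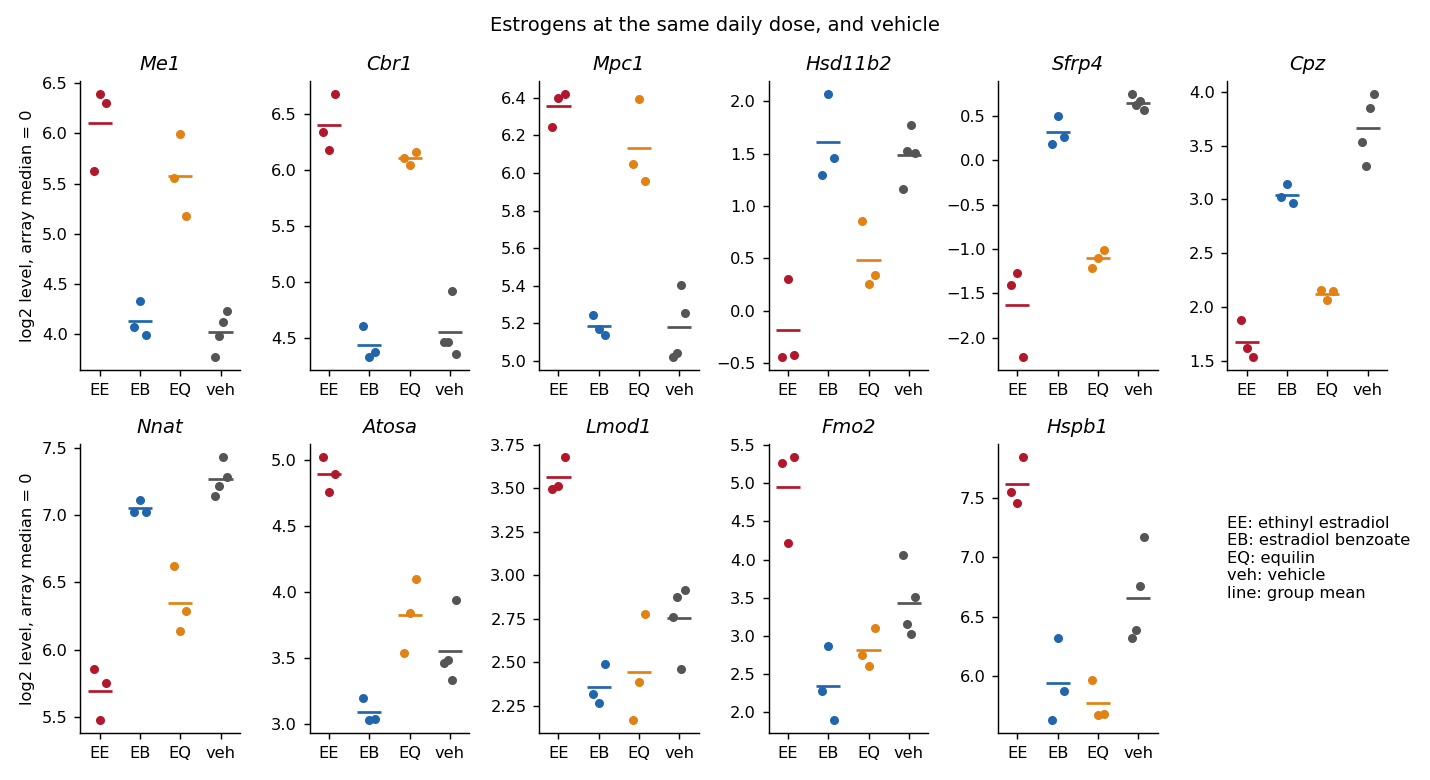
Log2 level on each array (array median = 0) of 11 genes after ethinyl estradiol, estradiol benzoate, equilin and vehicle, with 3, 3, 3 and 4 arrays and a line at each group mean. For Me1, Cbr1, Mpc1, Hsd11b2, Sfrp4, Cpz and Nnat the estradiol benzoate arrays lie near vehicle or between it and the other estrogens. For Lmod1, Fmo2 and Hspb1 the ethinyl estradiol arrays lie above all others.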

How the data were processed

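RNA of mesenteric arteries was hybridised to 1-colour CodeLink rat arrays, 1 array per rat. The authors deposited linear intensities, background-subtracted and scaled to array medians near 1, with some values below 0, as far as the values themselves show. Per the series' design text and the submitters' processing notes a GenePix 4000B scanner, GenePix Pro 5.0, Acuity 3.1 and GeneSpring 7.1 were used, and the sources used here do not say which of them made these values.

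From these intensities log2(intensity + 0.103) was computed with negative values set to 0, and each array was centred on its median. The offset is 0.1 of the overall median. Of 35129 probes, 40 were left out for missing values on more than 1 array in any group, and then the dimmest 30% were dropped, which left 24563. The platform annotation gave 16865 probes 1 gene symbol, 165 several and 18099 none. Groups came from the sample titles. All 20 arrays in 6 groups were fitted together with limma 3.58.1 in R 4.3.3 (lmFit, eBayes with a trend), so that the groups share 1 estimate of the spread, and p-values were adjusted by Benjamini-Hochberg over all tested probes. All adjusted p-values in the text are limma's. Rats of a group are the replicates, and p-values measure the spread between rats. With the array set as a block the comparison is the ethinyl estradiol mean against vehicle array 1. Python 3.11.15 with numpy 2.4.6, pandas 2.3.3 and matplotlib 3.10.9 was used for lists and figures. The fit was tested on simulated data.

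Lists count 1 probe a gene, the brightest. The genes named were the 12 highest and 12 lowest changes among probes that passed without overlap, up to 15 in each direction that passed both fits, up to 5 that passed in each list by smallest p (or the 2 with the smallest p where none passed), 26 fixed genes, and up to 6 in each direction against each other estrogen. The arrays compared and the gene lists were chosen with earlier results of these data known. Genes named beside the rule were chosen after their values were seen, among them Col1a2, Scd2, Cdk1, Aplnr, Mcm5, Kif20a and Kif22. The alternatives tried changed the normalisation, the offset, the filter, the variance model, the arrays in the fit and the blocks. Promoters came from RefSeq on build GRCr8, for 24 of the 30 genes that rose and 74 of the 106 that fell.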

Additional observations from a re-analysis of the deposited data

Results flagged for a closer look

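In the groups of 4 vehicle arrays, 1 array lay far from the other 3 for 2 of 144 sets of levels examined, where chance gives about 1 in 20. Tfpi2, a protease inhibitor of the matrix, read 1.62 on vehicle array 3, below the other vehicle arrays. Cpa3, a mast cell protease, read 2.08 on vehicle array 2, below the other vehicle arrays.

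Ethinyl estradiol differed from estradiol benzoate at the same dose by limma's test of the difference (adjusted p under 0.05) for 22 genes among those chosen by the naming rule. The rule itself takes in genes that passed against each other estrogen, so this count follows in part from the choice. Over all tested probes 0.281% passed, with 35 genes among those with 1 symbol. Differences in log2 level, ethinyl estradiol minus estradiol benzoate, were above 0 for lipogenic and related enzymes: Elovl6 2.06 on its dimmer probe, Me1 1.97 and 1.89 on 2 probes, Aacs 1.57, Mpc1 1.17 and Thrsp 1.08. The brighter Elovl6 probe differed by 1.33 and did not pass (adjusted p = 0.217). They were also above 0 for Fmo2, at 2.60 and 2.62 on 2 probes, Cbr1 1.97, Fkbp5 2.0, Atosa 1.80, Hspb1 1.68, Myocd 1.50, Ntsr1 1.31, Lmod1 1.21 and Cx3cl1 0.92. They were below 0 for the secreted and matrix genes Sfrp4 (-1.94), Cpz (-1.37), Col1a1 (-1.32 and -1.22 on 2 probes) and Cthrc1 (-1.10). The other differences below 0 were those of Hsd11b2 (-1.79), Nnat (-1.36), Pola2 (-1.34) and Top2a (-1.04). Second probes of Atosa (1.14) and Pola2 (-0.86) did not pass. Among genes outside the rule that also passed were Prrx2 (-1.05), Adcy2 (-0.95), Tekt1 (-1.19), Tmem86a (-0.97) and Sox15 (-1.10). So did 1 of 3 Spink5 probes (1.35), a probe that the rule had not named.

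From equilin, also at the same dose, ethinyl estradiol differed by limma's test for 11 genes among those chosen by the naming rule. This count too follows in part from the rule. Over all tested probes 0.175% passed, with 24 genes among those with 1 symbol. The differences, ethinyl estradiol minus equilin, were above 0 for Fmo2 (2.12 and 2.11 on 2 probes), Hspb1 (1.85), Map1b (1.82), Pln (1.32), Cacna1h (1.19), Lmod1 (1.12) and Atosa (1.07). They were below 0 for Arsi (-1.43), Pfkl (-1.37), Oxtr (-1.33) and Muc20 (-0.92). Other probes of Atosa, Pln, Map1b and Pfkl did not pass against equilin. Both comparisons share the 3 ethinyl estradiol arrays, and the compounds had 3 arrays each.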

How the results depend on the processing

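Against vehicle 295 probes passed. The count stayed between 239 and 378 under quantile normalisation, no centring, a smaller or larger offset, no filter on dim probes and no trend in the variance. It was 148 with the dimmest 50% left out, 506 with array weights, 9 with only the groups compared (2592 at an unadjusted p under 0.05), 164 with the regularly spaced probes left out, 743 with raloxifene array 3 left out, 134 with the array set as a block and 113 with vehicle array 1 as the only vehicle array. Leaving out 1 array at a time gave from 74, with ethinyl estradiol array 1 out, to 575, with vehicle array 1 out. It gave 176 and 120 without ethinyl estradiol arrays 2 and 3, and 116, 79 and 102 without vehicle arrays 2, 3 and 4. The replicate numbers of the labels share only a number: deviations of same-numbered arrays correlated at -0.0005, 0.029 and 0.0067, and a replicate block gave 62. Alternatives chosen after seeing the data gave 109 with the array set as a block and ethinyl estradiol array 3 left out, 260 with that block and raloxifene array 3 left out, and 493 with the regularly spaced probes and raloxifene array 3 left out.

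Against estradiol benzoate 69 passed, and the count was 431 with array weights, 259 with raloxifene array 3 left out, 0 with only the groups compared (3340 at an unadjusted p under 0.05) and 23 to 77 with 1 array left out. The replicate block gave 48. Against equilin 43 passed, and the count was 22 under quantile normalisation, 22 with no filter on dim probes, 1758 with array weights, 301 with raloxifene array 3 left out, 0 with only the groups compared (3472 at an unadjusted p under 0.05) and 2 to 35 with 1 array left out. The replicate block gave 36. The cause of these shifts was not tested. Of the 68 named probes that passed against vehicle, 51 could be tested with the dimmest 50% left out and all 68 under the other 23 alternatives. None reversed its direction in these fits. Where arrays were left out or the array set was a block, the lack of overlap between the groups fixes that in advance. Of the repeats of these probes 1098 stayed past the threshold and 517 did not.

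With 3 and 4 arrays a group, small changes of dim probes were not detectable, and readings at or below 0 carry no order. Vehicle array 1 is the single control in the array set of the estrogens, so set and treatment can be told apart only through it.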

Other observations

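Genes outside the lists also passed against vehicle, and those named here were chosen after their values were seen. Some were further genes of dividing cells: Pclaf, which binds the replication clamp, fell by 0.88, the centromere proteins Cenpw and Cenpt by 0.84 and 1.52, and Pola2, a subunit of DNA polymerase alpha, by 1.06. Some genes known from myeloid cells were among those that passed. Ly86, which pairs with a relative of the toll-like receptors, fell by 1.22, Ncf4, a subunit of the phagocyte oxidase, by 0.93, Evi2b by 1.37, Acp5, an acid phosphatase of macrophages and osteoclasts, by 0.86, and the scavenger receptor Stab1 by 0.80. Limma's adjusted p ran from 0.0213 for Ly86 to 0.0493 for Ncf4 over these 9 genes. None of the 9 passed with the array set as a block.

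Genes of excitable cells and of vascular mural cells moved in both directions. Scn3b, a sodium channel subunit, fell by 1.56 and 1.08 on 2 probes, the potassium channel Kcnk5 by 1.14, and Adcy2, an adenylyl cyclase, by 0.79. Rgs5, a regulator of G protein signalling found in pericytes, fell by 1.11 and read 2.08, 1.35 and 2.68 after ethinyl estradiol and 3.07, 3.07, 3.24 and 3.22 after vehicle. Notch3, the Notch receptor of arterial smooth muscle, rose by 0.95 and read 0.90, 0.72 and 0.80 after ethinyl estradiol and 0.09, 0.08, -0.44 and -0.30 after vehicle. The groups did not overlap for either gene. Dsc2, a desmosomal cadherin, rose by 1.28, Slc22a2, an organic cation transporter, by 0.91, Pak3, a kinase, by 0.83, and Cckbr, the receptor for gastrin and cholecystokinin, by 0.63.

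Isolated low readings of bright genes were found on the ethinyl estradiol arrays. Mettl7a read -3.15 on ethinyl estradiol array 3, against 3.58 and 3.61 on arrays 1 and 2 and 3.81, 3.82, 3.57 and 3.56 on the vehicle arrays. Kank3 read 0.26 on ethinyl estradiol array 1, against 5.05 and 5.72 on arrays 2 and 3 and 5.31, 5.45, 5.36 and 5.24 on the vehicle arrays. Set against the other 19 arrays, with 3211 bright genes, such readings numbered 17, 24 and 43 on the 3 ethinyl estradiol arrays, 11, 3 and 0 on the estradiol benzoate arrays, 2, 0 and 0 on the equilin arrays and 0 on each vehicle array. Raloxifene array 3 had 128 and tamoxifen array 2 had 25. Isolated high readings by the same measure numbered 0 on all 7 arrays of the comparison with vehicle.

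Under the block for the array set 43 named probes passed that had not passed against all 4 controls. Their median levels were -0.73 after ethinyl estradiol, -2.44 on vehicle array 1 and -0.90 on vehicle arrays 2 to 4. A choice by a fit against vehicle array 1 favours low levels on it.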
